A study of Mus musculus with 8 samples.

Results

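Carboxylesterases hydrolyse ester, amide and thioester bonds. The genes of the carboxylesterase 1 and 3 families that were measured in mouse liver are described here: Ces1b, Ces1c, Ces1d, Ces1e, Ces1f, Ces1g, Ces3a and Ces3b. They were chosen by name, not by measured values, and all 8 were found among 20738 named genes, 6 in family 1 and 2 in family 3. Each was measured by 1 array feature (spot), out of 31465 features with a gene symbol, so no gene has a second feature as a check. The livers came from male CD-1 mice, an outbred stock, fed for 7 days either a control diet (0 ppm) or a diet with 2500 ppm NaPB, sodium phenobarbital, with 4 one-colour arrays per diet. The mice carried no transgene or deletion named in the labels, and their age is not given in the sources used here. Whether each array stands for its own mouse is not given in the labels, and p-values therefore cover the spread between samples alone, which may be technical.

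Phenobarbital activates the nuclear receptor CAR in hepatocytes and thereby many genes of drug metabolism, certain carboxylesterases of family 2 among them. Enzymes of families 1 and 3 are made in hepatocytes, where most sit in the lumen of the endoplasmic reticulum (ER); they hydrolyse ester drugs, fatty acid esters and stored triacylglycerol. Ces1c is the exception in location, since it is secreted and is the main carboxylesterase of mouse plasma. Ces1d, also called triacylglycerol hydrolase, releases stored lipid for export in very-low-density lipoprotein (VLDL), and Ces1e, also called egasyn, holds beta-glucuronidase in the ER.

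The members did not shift as a family: 4 had a log2 fold change above 0 on the NaPB diet and 4 below 0. Ces3b was 4.39-fold, Ces3a 2.90-fold and Ces1e 2.15-fold lower, and for these 3 genes every NaPB array was below every control array. Ces1g was 2.06-fold, Ces1b 1.91-fold, Ces1d 1.58-fold and Ces1c 1.55-fold higher, each with some overlap, and Ces1f was 1.32-fold lower, a value that changed sign without 1 array. None of the 8 passed limma's test at an adjusted p below 0.05 over all genes, where 1.01% of genes passed; at an unadjusted p below 0.05 there were 5 members (2 higher, 3 lower), against 10.1% of genes. When every feature was tested singly, again none of the 8 member features passed, against 0.849% of features. The diets did not overlap for 3 of 8 members, all lower, where this held for 7.04% of all genes and, in the lower direction, for 4.31%. The median log2 fold change was 0.12 over the members and 0.01 over all genes. Differences in response between members, taken within each array, separated the diets without overlap in 20 of 28 pairs. Of these, 15 joined a higher with a lower member, out of 16 pairs of that kind. Members were sorted by the sign of their change on these same arrays, with Ces1f among the lower. The count of 15 therefore follows largely from the sorting. The share for pairs of other genes was not computed.

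NaPB replicate 4 stood apart for these genes. All 8 members had their lowest NaPB value on that array and all 8 their highest on NaPB replicate 2. On the control diet 5 members were highest on replicate 1 and 6 were lowest on replicate 2. The libraries labelled NaPB all carried the response known for the drug: Cyp2b10, the P450 classically induced by phenobarbital, measured 0.863 to 5.22 under the control diet, and 521, 491, 430 and 77.7 in order of NaPB replicate. Cyp2b10 rose 114-fold (limma adjusted p = 0.0018), with the smallest rise on NaPB replicate 4. The hepatocyte markers fixed for these samples (8 of 8 measured, none at the floor of an array, defined as up to 2 times the lowest value on it) summed to 3500 to 6230 on the control and 2620 to 4350 on the NaPB arrays, lowest on NaPB replicate 4. Their mean log2 value was 0.91 units below the control mean there (−0.91), against −0.38 over NaPB replicates 1 to 3, and their part in the results was not tested. In whole liver, fewer cells of a type and less RNA per cell cannot be told apart.

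**Figure D1:**
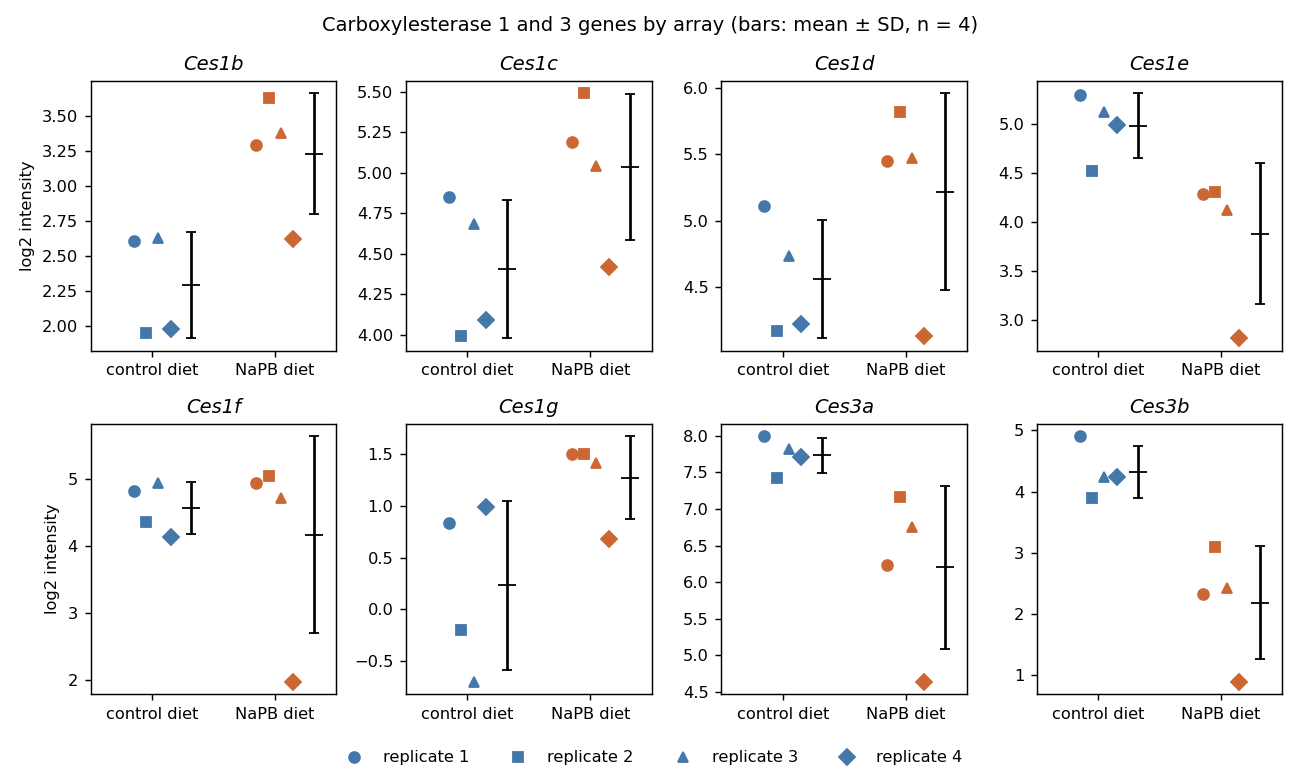
Log2 intensity (y axis) of each carboxylesterase 1 and 3 gene on the 4 control arrays (blue) and the 4 NaPB arrays (orange), with the marker shape giving the replicate number and the bars the mean ± SD. The diamonds of NaPB replicate 4 are the lowest NaPB points in all 8 panels, and only Ces1e, Ces3a and Ces3b separate the diets without overlap.

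The genes lie in clusters on mouse chromosome 8. RefSeq promoters (GRCm38.p6, 250 bases before to 50 after a start site) matched 5 of the 8 members: Ces1b with 2 starts, Ces1c, Ces1e, Ces1g and Ces3b. The windows of Ces1b and Ces1c, both higher on the NaPB diet, and of Ces1e and Ces3b, both lower without overlap, are printed to set members of opposite direction beside each other. Capitals mark matches, on either strand, to any of the motifs searched: TATAAA for the TATA-binding protein, AGGTCA as the first nuclear receptor half-site, AGTTCA as the other, TTCNNNGAA (STAT), TGACNNNGC (antioxidant response element core), TTGCNNAA (C/EBP type), CCAAT as the nuclear factor Y box, and GGGCGG as the Sp1-type box rich in guanine. The windows are given in the direction of transcription, for Ces1b (first start) at chr8:93079891-93080190, Ces1c at chr8:93131234-93131533 and Ces1e at chr8:93229570-93229869 on the minus strand, and for Ces3b at chr8:105083505-105083804 on the plus strand.
Ces1b: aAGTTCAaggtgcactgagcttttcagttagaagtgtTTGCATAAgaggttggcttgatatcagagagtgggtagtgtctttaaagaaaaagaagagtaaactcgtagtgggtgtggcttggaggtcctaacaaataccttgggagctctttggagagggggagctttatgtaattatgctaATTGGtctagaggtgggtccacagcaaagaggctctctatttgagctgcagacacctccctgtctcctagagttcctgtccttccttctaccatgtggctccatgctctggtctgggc
Ces1c: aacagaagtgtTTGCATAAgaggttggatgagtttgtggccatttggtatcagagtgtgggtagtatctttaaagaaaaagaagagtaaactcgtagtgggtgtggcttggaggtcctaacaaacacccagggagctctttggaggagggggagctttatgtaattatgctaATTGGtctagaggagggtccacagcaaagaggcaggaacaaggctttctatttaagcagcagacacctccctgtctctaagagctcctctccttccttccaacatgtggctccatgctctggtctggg
Ces1e: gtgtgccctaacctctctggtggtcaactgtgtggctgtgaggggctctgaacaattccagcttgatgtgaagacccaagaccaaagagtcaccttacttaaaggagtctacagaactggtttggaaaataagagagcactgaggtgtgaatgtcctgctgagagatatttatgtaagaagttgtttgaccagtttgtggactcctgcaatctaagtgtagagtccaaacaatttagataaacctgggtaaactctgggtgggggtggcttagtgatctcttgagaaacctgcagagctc
Ces3b: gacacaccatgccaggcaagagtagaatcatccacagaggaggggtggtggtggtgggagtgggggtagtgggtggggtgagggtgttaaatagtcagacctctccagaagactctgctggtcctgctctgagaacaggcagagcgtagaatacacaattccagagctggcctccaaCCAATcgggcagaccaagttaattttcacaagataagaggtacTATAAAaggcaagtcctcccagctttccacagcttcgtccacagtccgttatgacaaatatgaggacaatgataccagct

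Ces1b and Ces1c had nearly the same promoter: 253 of 273 aligned bases were identical (92.7%). All other pairs of different members lay between 54.9% and 66.7% apart from the second start of Ces1b, which shares most of its window with the first and was 93.9% identical to Ces1c. Both Ces1b windows and that of Ces1c carried the C/EBP-type match TTGCATAA, and the motif was found in 10.8% of 32851 RefSeq promoters. The half-site AGTTCA (14.0% of promoters) was in both Ces1b windows and in none of the others, and AGGTCA (16.3%) was in no member window. The printed Ces3b window held TATAAA on the forward strand from −30 to −25 (start site at 0) and Ces1g held the same letters on the reverse strand (13.6% of all promoters). CCAAT was in 5 of the 6 member windows, all but that of Ces1e, and in 37.4% of all promoters. The overlapping Ces1b windows hold the same site, and that of Ces1c is nearly identical, so the 5 are not separate cases. The Ces1e window held none of the motifs searched. It aligned with the first Ces1b window over 149 bases, the second over 222 and Ces1c over 136, against 273 between Ces1b and Ces1c. The windows of Ces1e and of these genes therefore correspond only in part. Its lack of matches and its percent identity describe this window alone, and whether the annotated starts correspond was not tested. A match here describes letters in a window and is no evidence of binding, and neither STAT (8.30% of promoters), antioxidant (12.4%) nor Sp1-type (35.7%) letters were in any member window.

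In family 3 both genes were lower on the NaPB diet. Ces3b had intensities of 29.8, 14.8, 18.9 and 18.9 on control replicates 1 to 4, and of 5.01, 8.56, 5.34 and 1.86 on NaPB replicates 1 to 4. Every NaPB value lay below every control value, and the lowest control value was above the highest NaPB value by a clear gap. The geometric means were 19.9 (log2 SD 0.42, n = 4) on the control and 4.54 (log2 SD 0.93, n = 4) on the NaPB diet. The change on the log2 scale was −2.13 ± 0.44 (limma SE, adjusted p = 0.0536). This was the member nearest the threshold. It passed without NaPB replicate 2 (−2.44, limma adjusted p = 0.0415) and without NaPB replicate 4 (−1.71, limma adjusted p = 0.0379), and in 9 of 20 alternatives in all, with limma adjusted p from 0.0126 to 0.144 over them.

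Ces3a had intensities of 254, 172, 226 and 210 on the control arrays and of 75.5, 144, 107 and 24.99 on NaPB replicates 1 to 4. The control values were close together and every NaPB value lay below them, with the NaPB arrays spread over more than 2 log2 units. The log2 SD was 0.24 on the control and 1.11 on the NaPB diet. Ces3a was thus at −1.54 ± 0.48 on the log2 scale (limma adjusted p = 0.232). Without NaPB replicate 4 it was −1.02 ± 0.29 (limma adjusted p = 0.149). On each NaPB array Ces3b lay further below its control mean than Ces3a did below its own: −1.99 against −1.50, −1.22 against −0.57, −1.90 against −0.99 and −3.42 against −3.09 on replicates 1 to 4. The difference in response between them was 0.60 log2 units (95% interval 0.19 to 1.01; two-sided exact permutation p = 0.0286, the smallest that 4 against 4 arrays allow).

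Ces1e, egasyn, was the family 1 gene that was lower without overlap. It had intensities of 39.2, 22.9, 34.7 and 31.6 on the control arrays and of 19.4, 19.7, 17.4 and 7.02 on NaPB replicates 1 to 4. NaPB replicates 1 to 3 were close to each other and just under the lowest control array, and replicate 4 was far lower. Its log2 fold change was −1.10 ± 0.37 (limma adjusted p = 0.284). It was −0.75 ± 0.26 without NaPB replicate 4 (limma adjusted p = 0.235), and it passed after quantile normalization (−1.21 ± 0.20, limma adjusted p = 0.0289), which forces all arrays onto 1 distribution. Gusb, the beta-glucuronidase gene whose product egasyn holds in the ER, was at 0.68 ± 0.34 on the same scale and missed the threshold (limma adjusted p = 0.57).

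Ces1b, Ces1c, Ces1d and Ces1g were higher on NaPB replicates 1 to 3 than on any control array. Ces1b had intensities of 6.12, 3.87, 6.20 and 3.94 on the control arrays and of 9.78, 12.3, 10.4 and 6.14 on NaPB replicates 1 to 4. Its diets overlapped only through NaPB replicate 4, which lay between the values of control replicates 1 and 3. The log2 fold change was 0.94 ± 0.31 (limma adjusted p = 0.277). It passed in 2 of 20 alternatives, quantile normalization (0.87 ± 0.17, limma adjusted p = 0.0469) and array weights (1.15 ± 0.25, limma adjusted p = 0.0312); its limma adjusted p ran up to 0.575 over all of them.

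Ces1c, the plasma carboxylesterase gene, had intensities of 28.8, 15.8, 25.7 and 17.1 on the control arrays and of 36.4, 45.0, 32.97 and 21.4 on NaPB replicates 1 to 4. NaPB replicate 4 was inside the control range and the other 3 lay above it. Its log2 fold change was 0.63 ± 0.32 (limma adjusted p = 0.587), and 0.84 ± 0.30 without NaPB replicate 4 (limma adjusted p = 0.241). Ces1d, the triacylglycerol hydrolase gene, had intensities of 34.6, 18.0, 26.5 and 18.6 on the control arrays and of 43.9, 56.3, 44.5 and 17.5 on NaPB replicates 1 to 4. On this gene NaPB replicate 4 was below all control arrays while the other 3 were above them. The log2 fold change was 0.66 ± 0.40 (limma adjusted p = 0.676), 1.02 ± 0.30 without NaPB replicate 4 (limma adjusted p = 0.157) and 1.21 ± 0.25 with control replicate 1 left out too (limma adjusted p = 0.0517). Over the 20 alternatives its limma adjusted p ran from 0.0517 to 0.917.

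Ces1g, a carboxylesterase known to affect hepatic lipid, had the widest control spread of the members. It had intensities of 1.78, 0.871, 0.614 and 1.99 on the control arrays and of 2.82, 2.83, 2.65 and 1.60 on NaPB replicates 1 to 4. NaPB replicates 1 to 3 were almost equal and above every control array, and replicate 4 lay between the control values. The log2 SD was 0.82 on the control and 0.40 on the NaPB diet. The log2 fold change was 1.04 ± 0.41 (limma adjusted p = 0.393), and no alternative brought it past the threshold.

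Ces1f, a relative of Ces1d, had the largest spread on the NaPB diet, with a log2 SD of 1.47 against 0.39 on the control diet. Its intensities were 28.4, 20.5, 30.9 and 17.5 on the control arrays and 30.7, 33.01, 26.4 and 3.91 on NaPB replicates 1 to 4. NaPB replicates 1 to 3 lay within or just above the control range and replicate 4 was far below everything else. The log2 fold change of −0.40 ± 0.61 (limma adjusted p = 0.89) turned to 0.34 ± 0.28 without that array (limma adjusted p = 0.683).

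Without NaPB replicate 4 the diets did not overlap for 7 of the 8 members, 4 higher and 3 lower, Ces1f being the exception. That array's removal also raised the share over all genes, to 16.0%. One member, Ces3b, passed limma's test in that fit.

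**Figure D2:**
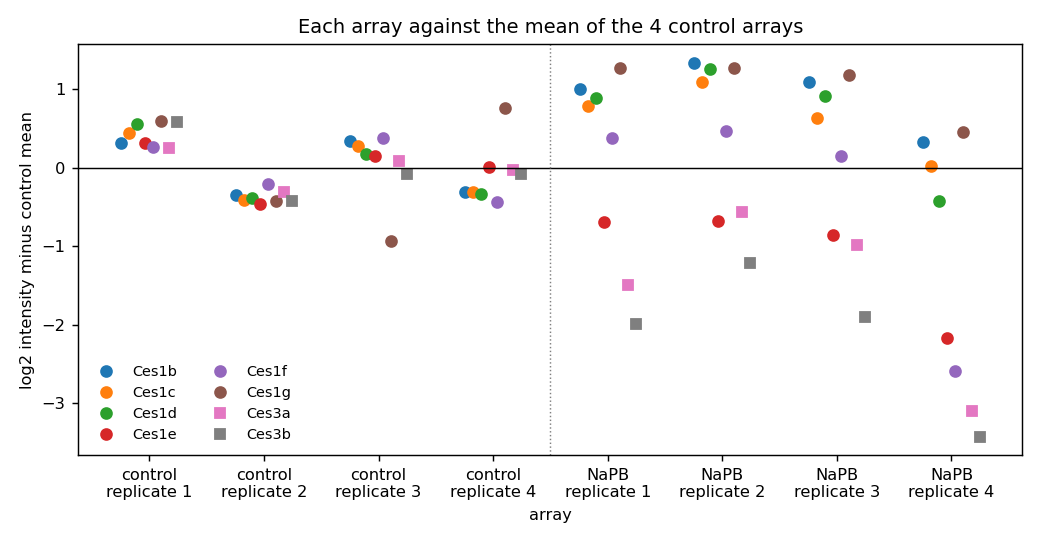
Log2 intensity of each member minus its mean over the 4 control arrays (y axis) on each array (x axis), circles for family 1 and squares for family 3. On every NaPB array Ces3b is the lowest point and Ces1b, Ces1c, Ces1d and Ces1g lie above Ces1e, Ces3a and Ces3b. On NaPB replicate 4 each member has its lowest NaPB value, but unevenly. Ces3b is at −3.42 and Ces1f at −2.60 there, while Ces1c (0.02), Ces1b (0.33) and Ces1g (0.45) stay above 0.

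The comparison of members within an array asked whether they differed in response, which a shift of a whole array cannot change. For each of the 28 pairs the log2 difference between both genes was taken on every array and compared between the diets by a two-sided exact permutation test over 70 relabelings. In 20 pairs the exact p was 0.0286, the smallest possible (0.04 after Benjamini-Hochberg adjustment over the 28 pairs), and these were the pairs whose differences did not overlap between the diets. Since members and pairs were set with earlier results known, the adjusted value describes these arrays. Pairs that share a gene are not independent, and without a share for pairs of other genes the count is a description only.

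Ces3b differed from all 7 other members. The gap was 3.07 log2 units against Ces1b (95% interval 2.35 to 3.79), 3.18 against Ces1g (2.08 to 4.27), 2.80 against Ces1d (2.42 to 3.17) and 2.77 against Ces1c (2.09 to 3.45). None of these intervals included 0, and they describe Ces3b alone, not family 3. Against Ces1e the gap of Ces3b was smaller, at 1.03 (0.54 to 1.52). Ces1e in turn differed from its family neighbours: the response of Ces1d was above that of Ces1e by 1.76 (1.42 to 2.11), of Ces1b by 2.04 (1.54 to 2.53) and of Ces1c by 1.73 (1.26 to 2.21). A difference between Ces1e and Ces3a was not detected (0.43, −0.19 to 1.06; exact permutation p = 0.2), an interval that allows a gap of over 1 log2 unit.

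Among the 4 members above 0, 1 of 6 pairs differed: Ces1b exceeded Ces1c by 0.30 (0.13 to 0.47), a small but even gap between the pair with nearly identical promoters. Between Ces1c and Ces1d no difference was detected (−0.03, interval −0.44 to 0.38; exact permutation p = 0.914), and the intervals of the 3 pairs with Ces1g were wide, for example −1.31 to 1.10 against Ces1b. Ces1f differed from 5 members: Ces1b, Ces1c and Ces1d were above it by 1.33, 1.03 and 1.06 and it was above Ces3a and Ces3b by 1.14 and 1.74, all with the smallest exact p, although the interval against Ces1c (−0.29 to 2.35) includes 0. From Ces1e (−0.70, exact permutation p = 0.114) and from Ces1g no difference was detected. Without NaPB replicate 4 these gaps of Ces1f were 0.80, 0.50, 0.69, 1.35 and 2.04, so the first 3 rest in part on that array. Without that array 22 pairs did not overlap, again with no share for pairs of other genes computed.

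**Figure D3:**
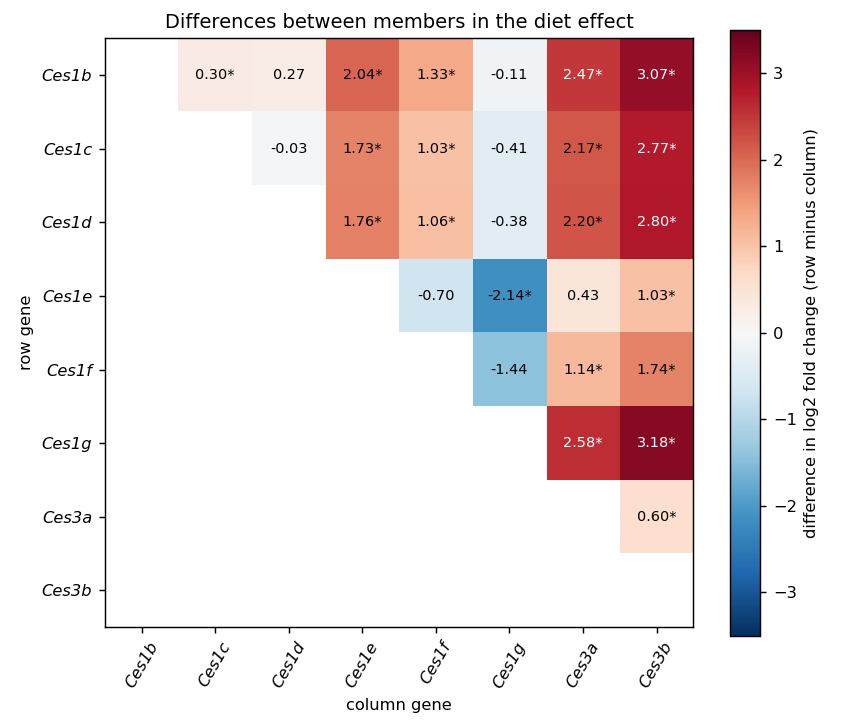
Difference in log2 fold change between the row gene and the column gene (colour and number, log2 units) for the 28 pairs of members; an asterisk marks an exact permutation p of 0.0286. The columns of Ces3a and Ces3b are high against all family 1 genes except Ces1e with Ces3a (0.43), and the largest value is 3.18 for Ces1g against Ces3b.

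In RefSeq order along the chromosome the family 1 genes follow each other from Ces1a to Ces1h, and Ces3a and Ces3b follow the family 2 genes. Direct neighbours could differ in response: Ces1d at 0.66 ± 0.40 stands next to Ces1e at −1.10 ± 0.37, a pair that separated the diets above. Between the neighbours Ces1f and Ces1g a difference was not detected (−1.44, interval −3.28 to 0.41; exact permutation p = 0.114). At the ends of the family 1 group Ces1a (0.45 ± 0.53) and Ces1h (0.21 ± 0.34) did not pass. Of 11 other carboxylesterase genes 2 rose, none fell and 9 did not pass, with a median log2 fold change of 0.28. Ces2a rose 5.21-fold and Ces2c 5.72-fold (limma adjusted p = 0.00802 and 0.0053). Ces2b, 4.94-fold higher, did not pass (limma adjusted p = 0.082). It passed without NaPB replicate 4 (limma adjusted p = 0.00395), and also with all 8 arrays under quantile normalization (0.0433), a filter at the median level (0.0359), the variance trend (0.0435) and array weights (0.00263). Probe sequences were not used here, so signal shared between the closely related genes of a family could not be told apart from their own.

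**Figure D4:**
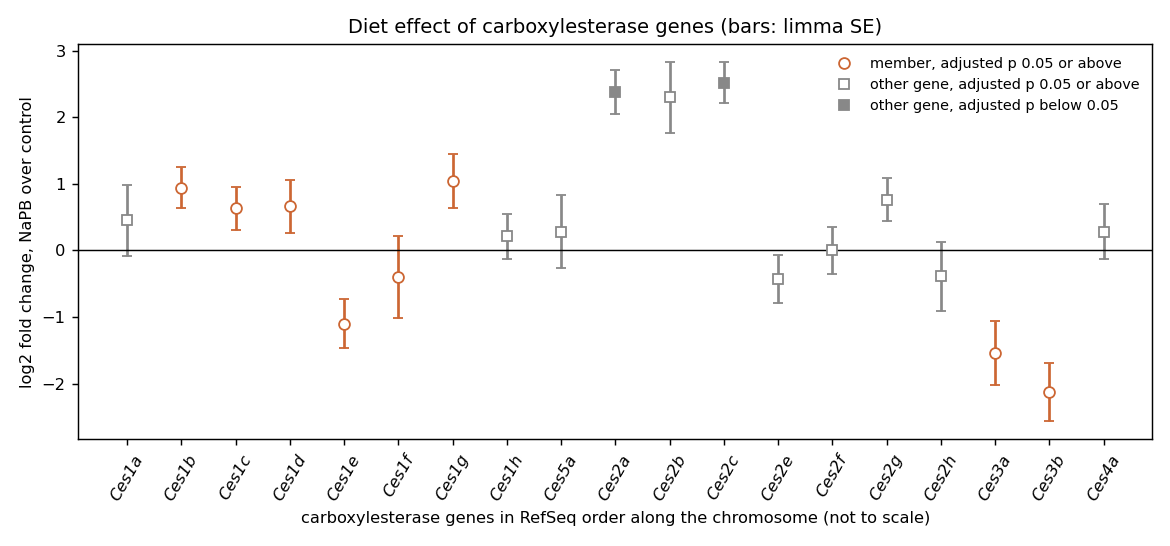
Log2 fold change of NaPB over control (y axis, bars limma SE, n = 4 per diet) of the measured carboxylesterase genes in RefSeq order along the chromosome, not to scale, orange circles for the members and grey squares for other carboxylesterases. Filled symbols passed at an adjusted p below 0.05, which only Ces2a and Ces2c did, and Ces3b is the lowest point at −2.13.

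Genes of the pathways in which the members act gave no call with the settings used for the members, and a few passed under others. Of 23 other ester and neutral lipid hydrolase genes none passed, 10 lay above 0 and 13 below (median −0.15). In this list 5 had an unadjusted limma p below 0.05, against 10.1% of all genes. The diets did not overlap for 4 (1 higher, 3 lower), against 7.04% of all genes. Pnpla2, the adipose triglyceride lipase gene, was higher without overlap (0.85 ± 0.26, limma adjusted p = 0.228), and the hepatic lipase gene Lipc (−0.87 ± 0.31, limma adjusted p = 0.327) and Cel, of bile-salt-stimulated lipase (−0.90 ± 0.26, limma adjusted p = 0.18), were lower without overlap. Pnpla2 passed with array weights (limma adjusted p = 0.0435). Of 26 genes of triacylglycerol synthesis, lipid droplets and VLDL assembly none passed, 11 lay above 0 and 15 below (median −0.12). Here 5 had an unadjusted limma p below 0.05, against 10.1% of all genes. Apoe, of apolipoprotein E, came closest (−1.29 ± 0.30, limma adjusted p = 0.0835), and passed with quantile normalization (0.0113), the median filter (0.0338) and array weights (0.0285). The acyltransferase gene Agpat2 (−0.87 ± 0.30) and the lipid droplet gene Plin5 (−0.80 ± 0.33) had the next smallest p, and Agpat2 passed with quantile normalization (limma adjusted p = 0.0345). Without NaPB replicate 4 the transport vesicle gene Sar1b (1.91, limma adjusted p = 0.0177) and the lipid droplet gene Plin4 (−1.57, limma adjusted p = 0.0251) passed; both are named after their values were seen.

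Of the 3 receptor genes that return ER proteins from the Golgi and Gusb, none passed at either an adjusted or an unadjusted limma p below 0.05. Kdelr2 was at −0.13 ± 0.34. Kdelr3 was at the floor on 3 control and 2 NaPB arrays, so its value of −0.10 ± 0.56 has no order. Of 15 measured transcription factor genes known in liver drug and lipid metabolism none passed. Only 1 had an unadjusted limma p below 0.05, against 10.1% of all genes. It was Ppara, the fatty acid sensor, lower without overlap (−0.94 ± 0.30, limma adjusted p = 0.249). The dioxin receptor gene Ahr (0.92 ± 0.54) and Stat5b (−0.48 ± 0.29), of growth hormone signalling, followed with limma adjusted p of 0.665 and 0.685. Ahr passed only without control replicate 1 and NaPB replicate 4 together (1.67, limma adjusted p = 0.0403).

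The genes whose pattern was most like that of Ces3b, the member with the smallest p, were found by the root mean square difference over the 8 arrays after subtracting each gene's control mean, among 9786 genes above the median level (without predicted or clone-named genes). They were Nudt7, a peroxisomal coenzyme A hydrolase gene (0.20 log2 units from Ces3b), the aldehyde oxidase gene Aox3 (0.20), the serpin gene Serpina9 (0.21), the P450 gene Cyp2c67 (0.27) and the replication gene Mcm10 (0.28). All 5 were lower on the NaPB diet without overlap, which follows largely from their choice by likeness to Ces3b on these arrays. Their log2 fold changes ran from −1.80 ± 0.47 (Cyp2c67) to −2.24 ± 0.47 (Serpina9). Mcm10 was the only one of them to pass (limma adjusted p = 0.0487), and it lost the call in 12 of 20 alternatives. Ces3a ranked at 21 in this order (0.47) and Ces1e at 106 (0.77), whereas Ces1g was at 9460 (2.31).

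Markers of other cells were read from fixed lists. Among the lists for Kupffer cells, endothelium, stellate cells, bile duct, adipocytes, pancreas, erythroid cells and lymphocytes no marker passed. Kupffer cell and macrophage markers summed to 31.3 to 34.0 on the control and 22.3 to 26.1 on the NaPB arrays, and adipocyte markers, of a tissue that also makes Ces1d, to 2.72 to 3.21 and 3.15 to 3.95. The 2 measured erythroid markers had the largest median difference of the lists (−1.16 on the log2 scale), with sums of 31.9 to 59.2 on the control and 21.0 to 45.3 on the NaPB arrays. Of 4 neutrophil markers 1 rose, with sums of 2.28 to 3.46 and 9.38 to 128. Their part in the members' values was not tested.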

How the data were processed

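Total RNA of mouse liver was measured on 8 one-colour Agilent arrays. The deposited values are linear spot intensities, read by the authors using Agilent Feature Extraction 10.7, per the submitters' processing notes; the 75th percentile was 0.952 to 0.974 on every array, so the authors had scaled them, by a rule not given in the sources used here. Of 62976 features 31465 had 1 gene symbol and 31511 none. Symbols were updated through RefSeq accessions (GRCm38.p6, names only).

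Log2 intensities, with no filter or pseudocount, were fitted with diet as the only term in limma 3.58.1 (R 4.3.3), over all 20738 genes (brightest feature) and over all features, with Benjamini-Hochberg adjustment, and the members read out. The model was tested on simulated data. The members, lists and alternatives were chosen with earlier results of these data known. Named are all members, called genes of each list with its 3 smallest p, 6 induction genes (Cyp2b10, Ces2a and Ces2c in the text, Cyp2c55, Cyp3a11 and Cyp2c29 in the closing section) and the 5 genes most like Ces3b. Promoter windows were aligned with Biopython 1.88 (match 2, mismatch −1, gap −4 and −1, free ends). Intervals of differences assume equal variances. The number of arrays limits the precision.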

Additional observations from a re-analysis of the deposited data

Results flagged for a closer look

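Within a diet, an array was singled out by its gap to the nearest other array. The gap had to exceed Dixon's critical share of the range of the 4 log2 values, which chance gives in about 1 in 20 independent groups. This held in 7 of 64 groups, 3 of 16 among the members, and 6 of the 7 were NaPB replicate 4. The groups share the same arrays, and some genes, such as Mcm10, were named for their values. The counts therefore cannot be set against that rate. On that array Ces1e stood at 7.02, Ces1f at 3.91 and Ces1g at 1.60, each far below the other NaPB arrays. Other genes also stood apart there, Ces2b at 3.00, Cyp2b10 at 77.7 and Mcm10 at 0.727. Gusb stood apart on control replicate 2, at 0.572.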

How the results depend on the processing

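Of 160 alternative values of the members' log2 fold changes, 145 kept direction and side of the threshold, 12 newly passed it (9 of Ces3b, 2 of Ces1b and 1 of Ces1e) and 3, all of Ces1f, changed sign: 0.24 with array weights, 0.42 without control replicate 1 and NaPB replicate 4 together, and −0.69 to 0.34 with 1 array left out. Members called were 3 with quantile normalization (2 among features), 2 with array weights (at both levels) and 1 (Ces3b, at both levels) with either filter on dim genes, a pseudocount at the 5th percentile, the variance trend, or both arrays left out; with 1 array left out they were 0 to 1. Members without overlap, an alternative chosen after seeing the data, were 7 without both arrays, against 26.7% of all genes. With 1 array left out they were 3 to 7, against 8.51% to 16.0% of all genes. Genes called numbered 328 with quantile normalization (100 higher, 228 lower, against 81 and 128), 111 after a shift to the same median, 812 with array weights (458 higher, 354 lower), 135 with the replicate block, 570 without both arrays (374 higher, 196 lower) and 88 to 365 with 1 array left out (211 higher, 154 lower without NaPB replicate 4). Features called were 417, 165, 988 and 701 for the same settings other than the block, and 111 to 484. Deviations of same-numbered arrays from their diet means had correlations of 0.23, −0.29, 0.04 and 0.23. These 4 values cannot settle whether the numbers pair the arrays. Kdelr2 changed sign with array weights (0.07), without both arrays (0.18) and within −0.33 to 0.04 with 1 array left out; Kdelr3 was 0.00 with a pseudocount of 1 and −0.51 to 0.24 with 1 array left out. The cause of these shifts was not tested.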

Other observations

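The other induction genes were all above 0. Cyp2c55 was at the floor on 3 control arrays, so no fold is given; its intensities were at most 0.1575 on the control arrays and 12.0, 15.45, 8.495 and 1.629 on NaPB replicates 1 to 4. It passed (limma adjusted p = 0.0018) but not with a pseudocount of 1 (limma adjusted p = 0.0592). With the settings used for the members, Cyp3a11 (1.24 ± 0.39) and Cyp2c29 (1.07 ± 0.45) did not pass (limma adjusted p = 0.237 and 0.436). Both were lowest on NaPB replicate 4 among the NaPB arrays, at 0.23 and −0.22 from the control mean, as the members were. Both passed with array weights (limma adjusted p = 0.0164 and 0.0245) and without control replicate 1 and NaPB replicate 4 together (0.0282 and 0.0236). Cyp3a11 also passed without NaPB replicate 4 alone (limma adjusted p = 0.0475).

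Family means by array join members of opposite direction in family 1. Ces1e alone was at −0.70, −0.68, −0.86 and −2.17 from its control mean on NaPB replicates 1 to 4. On NaPB replicate 4 Ces1f was at −2.60 and Ces1d at −0.43, while Ces1b, Ces1c and Ces1g stayed above 0. The mean of the 6 family 1 genes was 0.60, 0.79, 0.52 and −0.73 (log2, relative to control) on the NaPB arrays in replicate order, and that of the 2 family 3 genes at −1.75, −0.89, −1.45 and −3.26. Family 3 minus family 1 was −2.35, −1.68, −1.96 and −2.53 on these arrays and between −0.06 and 0.06 on the control arrays, a range far narrower than that of either family on the control diet (−0.37 to 0.42). The median of all genes on NaPB replicate 4 was 0.04 above the control median.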
